A study of Mus musculus with 2 samples.

Results

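Hba-x, Hba-a1, Hba-a2, Hbb-bs, Hbb-bt, Hbb-bh1, Hbb-bh2 and Hbb-y are the alpha-type and beta-type globin genes of the mouse, and their place among the deposited H3K27me3 peaks of an erythroleukaemia cell line is described here. The genes were chosen by name and not by a rule on measured values, though with earlier results of these data known. They form 8 of the 21911 protein-coding genes of the annotation. The 3 alpha-type genes lie on chromosome 11 and the 5 beta-type genes on chromosome 7 (GRCm38). Each gene, and each cluster with 50 kb on both sides, was compared with 4 peak lists: the peaks called in each of the replicates, those called on both together (the pooled list), and those the authors kept as replicated.

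Haemoglobin is built from alpha-type and beta-type chains, and both gene clusters switch during development from embryonic to adult genes. Hba-x (zeta), Hbb-y (epsilon-y) and Hbb-bh1 are expressed in primitive red cells of the embryo, and Hba-a1, Hba-a2, Hbb-bs and Hbb-bt encode the chains of adult haemoglobin. The alpha genes are driven by enhancers that lie in introns of the neighbouring gene Nprl3, and the beta genes by the locus control region beyond Hbb-y. H3K27me3, the trimethyl mark that the Polycomb methyltransferase places on a lysine of histone H3, is found over many silent developmental genes.

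The samples were 2 biological replicates of the MEL line, which form 1 group, and the labels name no treatment or genotype beyond the line itself. MEL cells are an immortalised mouse erythroleukaemia line, arrested as erythroid precursors, that can be driven to make adult haemoglobin by chemical inducers. The labels name no inducer, and give age and sex as not known or not collected. They also do not say whether the replicates were grown separately, so the spread between them may be technical. No expression values were used here, so neither the erythroid identity of the cells nor the activity of the globin genes was checked. The replicated list held 38298 peaks over 13.0 Mb, the pooled list 69721 over 19.1 Mb, the list of replicate 1 70901 over 16.1 Mb and that of replicate 2 106995 over 23.9 Mb. Most peaks were weak by the authors' own scale: a −log10 q of 2 was reached by 10.9%, 6.04%, 30.8% and 12.0% of them in the same order. The lists hold no read counts, so the depth is unknown, and the absence of a peak does not mean that the mark is absent.

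The promoters are shown first because the comparison of embryonic with adult genes turns on how alike these genes are. The 150 bases before the RefSeq start (GRCm38.p6) are given 5′ to 3′ on the strand of the gene for the 7 members with an entry. Capitals mark matches to the motifs searched, on both strands except the last kind: the GATA factor core (AGATAA plus TGATAA plus AGATAG plus TGATAG), the box CACCC that Klf1-type factors bind, the box CCAAT, and, on the strand of the gene, boxes of the TATA type (TATAAA plus CATAAA plus AATAAA). Hba-x lies at chr11:32276450-32276599 (+), Hba-a1 at chr11:32283522-32283671 (+) and Hba-a2 at chr11:32296342-32296491 (+). On the minus strand, Hbb-bt lies at chr7:103813924-103814073, Hbb-bs at chr7:103827929-103828078, Hbb-bh2 at chr7:103840522-103840671 and Hbb-y at chr7:103853208-103853357.
Hba-x promoter: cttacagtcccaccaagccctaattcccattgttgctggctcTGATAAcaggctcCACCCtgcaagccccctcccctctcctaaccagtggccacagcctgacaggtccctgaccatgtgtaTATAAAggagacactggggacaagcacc
Hba-a1 promoter: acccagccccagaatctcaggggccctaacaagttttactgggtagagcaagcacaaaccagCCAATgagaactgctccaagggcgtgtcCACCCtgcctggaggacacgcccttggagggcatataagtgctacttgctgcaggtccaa
Hba-a2 promoter: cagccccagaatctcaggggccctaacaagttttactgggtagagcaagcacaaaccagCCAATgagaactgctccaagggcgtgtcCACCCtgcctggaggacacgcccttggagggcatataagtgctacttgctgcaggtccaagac
Hbb-bt promoter: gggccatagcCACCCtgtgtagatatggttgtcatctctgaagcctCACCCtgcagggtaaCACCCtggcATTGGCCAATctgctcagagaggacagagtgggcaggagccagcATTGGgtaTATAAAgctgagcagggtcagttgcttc
Hbb-bs promoter: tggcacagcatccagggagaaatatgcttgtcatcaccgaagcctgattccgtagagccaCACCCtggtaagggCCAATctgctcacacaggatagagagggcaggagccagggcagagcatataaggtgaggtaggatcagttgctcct
Hbb-bh2 promoter: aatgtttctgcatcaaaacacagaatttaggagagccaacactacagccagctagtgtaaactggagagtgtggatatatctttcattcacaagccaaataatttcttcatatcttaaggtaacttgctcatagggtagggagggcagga
Hbb-y promoter: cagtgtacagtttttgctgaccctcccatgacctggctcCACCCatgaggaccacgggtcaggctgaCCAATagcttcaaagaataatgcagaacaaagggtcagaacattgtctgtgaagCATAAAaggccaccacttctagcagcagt

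CACCC was found in 6 of these 7 promoters, all but that of Hbb-bh2, and in 37.4% of 32851 promoter windows of the same length. CCAAT was found in 5 of 7, against 24.5% of all promoters. A TATA-type box as searched was found in Hba-x, Hbb-bt and Hbb-y, against 12.9% of all promoters. The promoters of Hba-a1, Hba-a2 and Hbb-bs hold the run CATATAAG near the start, which was not among the words searched. The lack of a match there thus does not mean that they lack a TATA box. A GATA core was found in 1, Hba-x, 108 bases before the start, against 16.0%. A match is a run of letters and not a measured binding site. Hbb-bt held CACCC 3 times, 140, 104 and 89 bases before its start, whereas Hbb-bs held it 1 time, 90 bases before. The promoters of Hba-a1 and Hba-a2 were identical over all 147 aligned bases, and those of Hbb-bs and Hbb-bt over 98 of 125 (78.4%).

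No globin gene held a replicated H3K27me3 peak. A gene was counted when a peak reached, by 1 bp or more, its body or the 1 kb before and after its start. The replicated list had 0 of the 8 globin genes by this rule, against 12.0% of all protein-coding genes. In the pooled list 1 of 8 was counted against 15.8%, in replicate 1 1 of 8 against 17.3%, and in replicate 2 1 of 8 against 21.4%. The same gene, Hba-x, was counted in these 3 lists, through a peak before its start, and in none of the 4 lists did a peak overlap the body of any globin gene.

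Globin genes are short, between 810 bp (Hba-a2) and 1717 bp (Hba-x), and short genes were seldom counted. Of the 1584 protein-coding genes of at most 2000 bp, 2.27% had a replicated peak, 3.47% a pooled peak, 3.28% a peak of replicate 1 and 5.81% a peak of replicate 2. The count of 0 of 8 in the replicated list is near this background and is not a result particular to the globin genes.

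**Figure D1:**
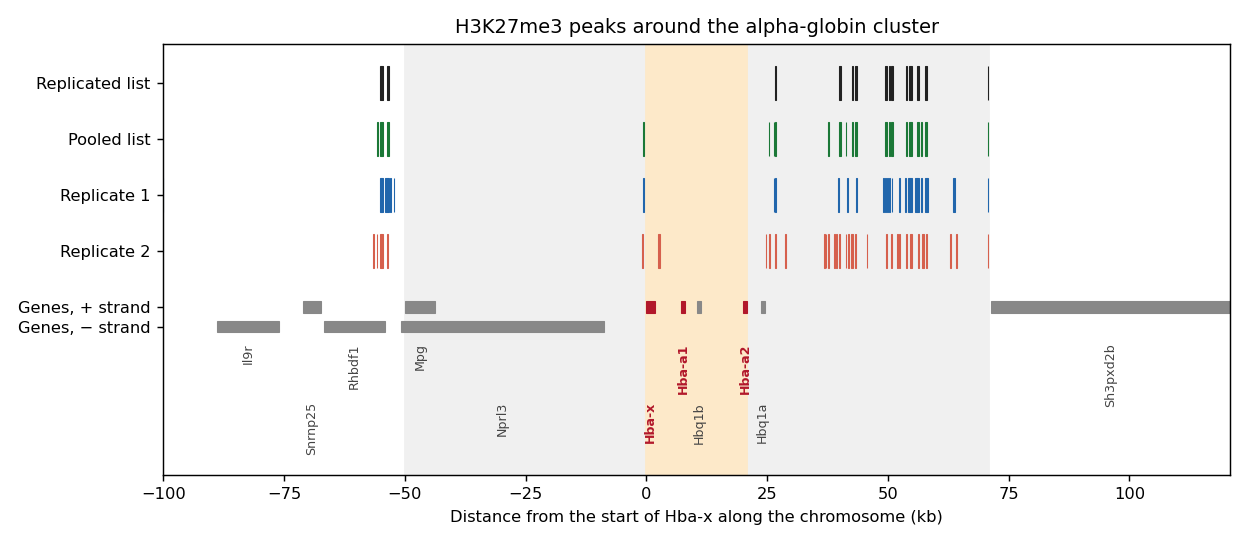
H3K27me3 peaks (coloured bars) of the 4 lists within 100 kb of the alpha-globin cluster, by distance in kb from the GENCODE start of Hba-x; genes are drawn below, with the globin genes in red, the cluster shaded orange and its 50 kb flanks grey. Peaks lie scattered in the 50 kb after Hba-a2 and cover 7.11% to 11.3% of it, by list. The body of Nprl3 is free of them, and 1 weak peak stands before Hba-x in every list except the replicated one.

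Hba-x, the embryonic alpha-type gene (zeta globin, ENSMUSG00000055609.8, chr11:32276400-32278116, + strand), was the member nearest to a peak in every list but the replicated one, where Hba-a2 was nearest. The pooled list placed a peak of 188 bp at chr11:32275647-32275834, 566 bp before the GENCODE start of the gene. Replicate 1 had a peak of 140 bp at chr11:32275700-32275839 and replicate 2 a peak of 189 bp at chr11:32275523-32275711. The calls of the replicates met only at their edges. The pooled peak shared 135 bp (71.8% of it) with the call of replicate 1 and 65 bp (34.6%) with that of replicate 2, but the calls of the replicates shared 12 bp with each other. The authors' −log10 q of the peak was 0.114 in the pooled list, 1.92 in replicate 1 and 0.564 in replicate 2, under 2 in each, and the peak was not kept as replicated. Without it, the nearest replicated peak to Hba-x was 24852 bp away, after Hba-a2. The RefSeq start of Hba-x, at 32276600, is later than the GENCODE start, so the Hba-x promoter printed above lies inside the GENCODE gene and outside these peaks.

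The list of replicate 2 alone had a further peak beside Hba-x, 387 bp long at chr11:32278735-32279121, 619 bp past the end of the gene and between it and Hba-a1. Its −log10 q was 0.920. This was the only peak of any list that fell between the first and the last gene of either cluster. The pooled peak before Hba-x and the first 300 bases of the peak of replicate 2 are shown on the plus strand, with the summit base in capitals, since they stand closest to a globin gene in their lists.
pooled peak before Hba-x, chr11:32275647-32275834: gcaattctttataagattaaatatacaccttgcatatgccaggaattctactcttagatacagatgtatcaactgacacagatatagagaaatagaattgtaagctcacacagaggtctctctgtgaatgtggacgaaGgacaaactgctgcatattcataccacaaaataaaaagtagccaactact
replicate 2 peak after Hba-x, chr11:32278735-32279034: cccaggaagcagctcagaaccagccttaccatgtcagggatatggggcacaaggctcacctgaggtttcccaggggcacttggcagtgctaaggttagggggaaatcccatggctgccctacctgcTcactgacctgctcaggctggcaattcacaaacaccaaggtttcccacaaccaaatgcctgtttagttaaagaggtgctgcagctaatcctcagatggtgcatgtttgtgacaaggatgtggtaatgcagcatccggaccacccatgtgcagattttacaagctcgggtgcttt

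Of the 188 bases before Hba-x 35.6% were G or C, with 1 CpG, and of the 300 bases after it 52.7%, with 2 CpG. Every 36-base word of both printed stretches occurred once in the genome, so short reads from them can be placed.

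Hba-a1 (ENSMUSG00000069919.7, chr11:32283511-32284465) and Hba-a2 (ENSMUSG00000069917.7, chr11:32296489-32297298), which encode the adult alpha chain, had no peak within 1 kb of their starts in any list. The nearest replicated peak was 18503 bp from Hba-a1 and 5670 bp from Hba-a2, and for both it was the same peak after Hba-a2. Around Hba-a1 the distance was 7677 bp in the pooled list, 7672 bp in replicate 1 and 4390 bp in replicate 2, where the nearest call was one of those beside Hba-x. Around Hba-a2 it was 4396 bp, 5437 bp and 3813 bp in the same lists. Hba-a2 thus stood nearest to a peak among the adult genes in all 4 lists, with values that stayed within 2 kb of each other. Its nearest replicated peak is printed because it is the boundary of the peak-free stretch on that side (plus strand, summit in capitals). It had a −log10 q of 0.879 and lay 2095 bp after Hbq1a, a theta-globin gene.
first replicated peak after Hba-a2, chr11:32302968-32303165: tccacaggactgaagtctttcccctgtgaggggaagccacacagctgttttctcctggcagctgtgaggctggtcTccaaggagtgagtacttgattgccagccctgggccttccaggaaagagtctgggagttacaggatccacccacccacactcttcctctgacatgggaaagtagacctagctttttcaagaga

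Hbb-bt (ENSMUSG00000073940.3, chr7:103812524-103813996) and Hbb-bs (ENSMUSG00000052305.6, chr7:103826534-103828096), the adult beta chain genes, are on the minus strand at the low end of the beta cluster. The distance from Hbb-bt to the nearest peak was 24699 bp in the replicated and pooled lists, 32220 bp in replicate 1 and 20513 bp in replicate 2. From Hbb-bs it was 38709 bp in the replicated and pooled lists, 46230 bp in replicate 1 and 34523 bp in replicate 2. Both were measured to the same peak in each list, on the side of the olfactory receptor gene Olfr67, so the genes differ only by their spacing along the chromosome. The replicated peak there, chr7:103787499-103787825, was inside Olfr67 and had a −log10 q of 0.533.

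Hbb-bh2 (ENSMUSG00000078621.2, chr7:103839124-103840520), in the middle of the beta cluster, was the globin gene farthest from any replicated peak, at 47076 bp. It was also the farthest in the pooled list (47076 bp), in replicate 1 (53991 bp) and in replicate 2 (45623 bp). The embryonic genes Hbb-bh1 and Hbb-y lie beside it. Hbb-bh1 (ENSMUSG00000052217.6, chr7:103841637-103843164) was 44432 bp from a replicated or pooled peak, 51347 bp from one of replicate 1 and 42979 bp from one of replicate 2. Hbb-y (ENSMUSG00000052187.4, chr7:103851749-103853216), the gene next to the locus control region, was 34380 bp from a replicated or pooled peak, 41295 bp in replicate 1 and 32927 bp in replicate 2. For these 3 genes the nearest peak in every list lay beyond Hbb-y. The replicated peak on that side is shown on the plus strand, with its summit in capitals, as the end of the peak-free stretch of the beta cluster. Its −log10 q was 0.114, and 34.7% of its bases were G or C.
first replicated peak beyond Hbb-y, chr7:103887596-103887745: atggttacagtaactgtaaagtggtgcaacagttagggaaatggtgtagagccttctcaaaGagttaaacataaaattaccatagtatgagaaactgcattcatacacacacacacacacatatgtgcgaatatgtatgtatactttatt

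**Figure D2:**
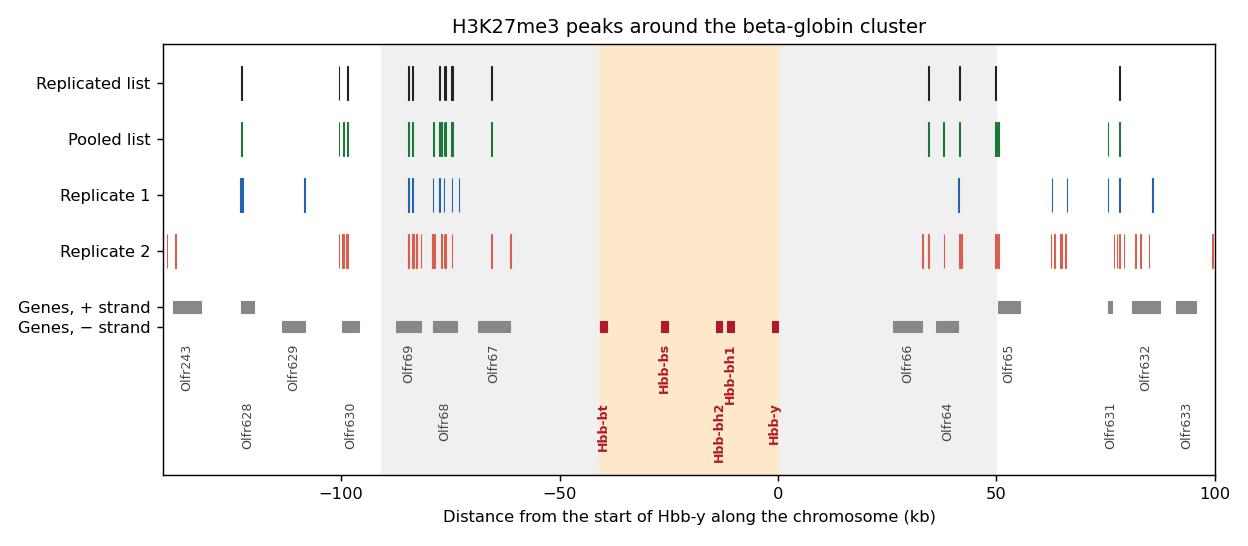
H3K27me3 peaks (coloured bars) of the 4 lists within 100 kb of the beta-globin cluster, by distance in kb along the chromosome from the GENCODE start of Hbb-y; genes are drawn below, with the globin genes in red, the cluster shaded orange and its 50 kb flanks grey. No list has a peak in the cluster, and the peaks on both sides stand among olfactory receptor genes.

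Set beside all genes, the globin genes were nearer to a replicated peak than the middle gene. In the other lists this did not hold for all beta-type genes. The median distance was 63410.5 bp over the 21728 protein-coding genes of chromosomes with a replicated peak, and genes with a peak in the body entered it at 0. The share of these genes that were as far or farther was 65.7% for Hba-x, 70.0% for Hba-a1 and 82.2% for Hba-a2. It was 65.8% for Hbb-bt, 58.8% for Hbb-bs, 55.3% for Hbb-bh2, 56.4% for Hbb-bh1 and 60.8% for Hbb-y. The median over all genes was 37558 bp in the pooled list, 31511 bp in replicate 1 and 19849 bp in replicate 2. All 5 beta-type genes were farther than that in both replicates, and Hbb-bs, Hbb-bh1 and Hbb-bh2 were farther in the pooled list, whereas the alpha-type genes were nearer in each. The chromosomes themselves differed in the replicated list. The median was 21770 bp over the 1637 genes of chromosome 11 and 107509 bp over the 2021 genes of chromosome 7. Against its own chromosome in that list, Hba-x was thus farther than the median gene. Hba-a1, Hba-a2 and all 5 beta-type genes were nearer. In the other lists Hba-x was nearer than the chromosome 11 median. Its distance was 566 against 16099 bp (pooled), 561 against 13493 bp (replicate 1) and 619 against 9736 bp (replicate 2). In the list of replicate 2 the chromosome 7 median was 32923 bp, and Hbb-y at 32927 bp, Hbb-bs, Hbb-bh1 and Hbb-bh2 were above it. In that of replicate 1 it was 46187 bp, and Hbb-bs at 46230 bp, Hbb-bh1 and Hbb-bh2 were above it. The standing of Hba-x and of the beta-type genes against the chromosome thus depended on the list.

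Replicated peaks were present near both clusters but not inside them. The alpha cluster with 50 kb on each side (chr11:32226400-32347298, 120899 bp) held 12 replicated peaks that covered 3556 bases, 2.94% of it. The pooled list had 18 peaks over 4680 bases (3.87%), replicate 1 had 21 over 5020 bases (4.15%) and replicate 2 had 30 over 6247 bases (5.17%). The SD of the covered bases between the replicates was 868 bases (n = 2). All 12 replicated peaks stood on 1 side, in the 50 kb after Hba-a2, which was covered to 7.11%. The 50 kb before Hba-x held 0 replicated peaks, and in each other list 1 peak, the one beside Hba-x described above.

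The peaks after Hba-a2 lay in the 46946 bp between Hbq1a and Sh3pxd2b, which encodes a podosome scaffold protein. This stretch was covered to 7.57% in the replicated list, 9.57% in the pooled list, 10.4% in replicate 1 and 12.1% in replicate 2. Their −log10 q ran from 0.520 to 2.38 in the replicated list, where 1 of 12 reached 2. In the same flank 7 of 20 peaks of replicate 1 reached 2, up to 3.90, and 8 of 28 of replicate 2, up to 4.22. On the other side, the body of Nprl3 (chr11:32225628-32267707, 42080 bp), a subunit of the GATOR1 complex whose introns carry the alpha enhancers, held 0 peaks in all 4 lists. The first replicated peak beyond it, chr11:32222655-32223066, was 53334 bp from Hba-x, and the next, 54443 bp away, overlapped Rhbdf1, which encodes an inactive rhomboid protein. These had −log10 q values of 2.52 and 2.04, and of the 12 peaks after Hba-a2 1 had a value between these, 2.38.

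The beta cluster with 50 kb on each side (chr7:103762524-103903216, 140693 bp) held 10 replicated peaks over 2299 bases, 1.63% of it. The pooled list had 14 peaks over 2927 bases (2.08%), replicate 1 had 8 over 1303 bases (0.926%) and replicate 2 had 18 over 3816 bases (2.71%). The SD of the covered bases between the replicates was 1777 bases (n = 2), a wider spread than at the alpha window although fewer bases were covered. Both flanks carried peaks: 7 over 1788 bases (3.58%) on the Hbb-bt side and 3 over 511 bases (1.02%) on the Hbb-y side. Their −log10 q lay between 0.114 and 0.980, and none reached 2. In replicate 2 the highest value was 3.88, on the Hbb-y side.

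Within the clusters themselves the lists were empty but for 1 call. The 40693 bp from Hbb-bt to Hbb-y held 0 peaks in all 4 lists, and so did the 26226 bp from Hbb-y to Olfr66, where the locus control region lies. The 20899 bp from Hba-x to Hba-a2 held 0 in 3 of the lists, and in that of replicate 2 the 387 bp call after Hba-x, 1.85% of the cluster. Stretches without peaks are the rule in these lists. Of 126515 windows of the length of the alpha cluster tiled along the genome, 91.3% held no replicated peak, and 79.2% of 5680 windows on chromosome 11. For the length of the beta cluster it was 87.4% of 64906 windows, and 88.8% of 3477 on chromosome 7.

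With their flanks, both windows ranked high over the genome by covered bases, but most windows of these lengths held no replicated peak. The share without a peak was 77.3% for the alpha length and 75.3% for the beta length. It was 56.2% for the alpha length on chromosome 11 and 76.3% for the beta length on chromosome 7. Of 21759 windows as long as the alpha window, 1070 (4.92%) were covered as much or more, but chromosome 11 was peak-rich and there it was 182 of 981 (18.6%). Of 18670 windows as long as the beta window, 1501 (8.04%) were covered as much or more, and on chromosome 7 57 of 1002 (5.69%). The mean covered share of windows of the alpha length was 0.494% over the genome and 1.91% on chromosome 11, and that of windows of the beta length was 0.315% on chromosome 7.

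**Figure D3:**
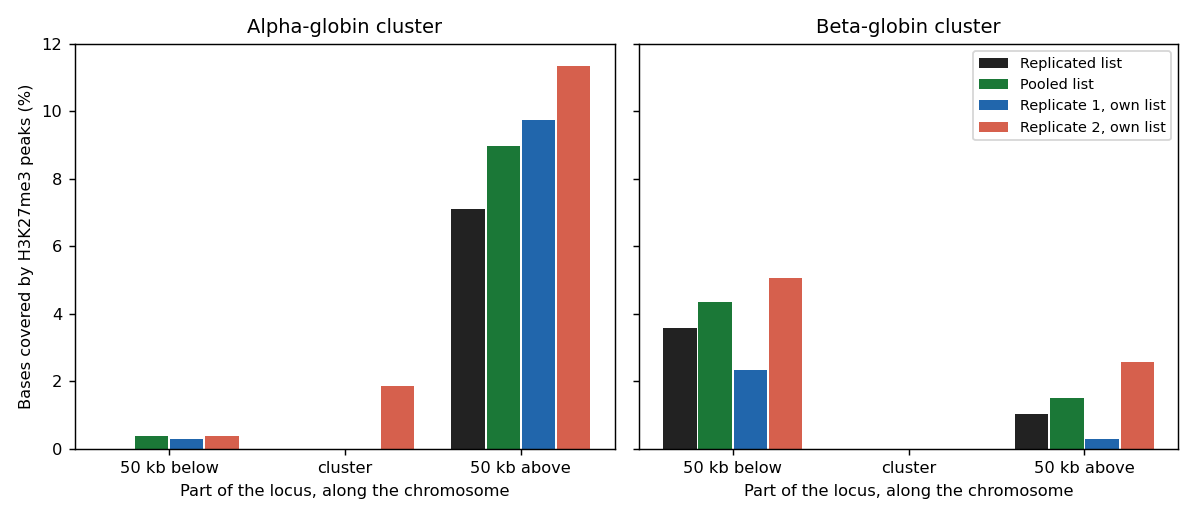
Share of bases covered by H3K27me3 peaks (vertical axis, %) in the 50 kb below, inside and above each globin cluster, 1 bar for each list; below and above follow the chromosome coordinate, so Hba-x is at the lower and Hbb-y at the upper edge of its cluster. Cover is 0 in the clusters except for 1.85% in the list of replicate 2 at the alpha cluster, and reaches 7.11% to 11.3% above the alpha cluster.

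The peaks of the replicates overlapped only in part around both clusters. In the alpha window 15 of the 21 peaks of replicate 1 (71.4%) overlapped a peak of replicate 2, and 13 of the 30 peaks of replicate 2 (43.3%) overlapped one of replicate 1. In the beta window it was 4 of 8 (50%) and 4 of 18 (22.2%). Of the replicated peaks, 10 of 12 in the alpha window and 4 of 10 in the beta window overlapped a peak in both own lists. These shares were lower in the beta window. The list of replicate 2 was the larger over the genome, with 106995 against 70901 peaks. The same shares over all peaks of the genome were not computed. Whether either window is less repeatable than is usual in these lists was thus not tested.

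The peak-free stretch that held the alpha-type genes was chr11:32223067-32302967 in the replicated list, 79901 bp, and also contained Mpg, Nprl3, Hbq1b and Hbq1a. The weak call before Hba-x cut it to 25859 bp in the pooled list and 26895 bp in replicate 1. In replicate 2 it was split, with 3023 bp around Hba-x and 21989 bp around Hba-a1 and Hba-a2. The stretch of the beta-type genes, chr7:103787826-103887595, was 99770 bp in the replicated and pooled lists and also contained Olfr66, and was 114206 bp in replicate 1 and 94131 bp in replicate 2. The beta stretch was thus similar in all 4 lists, and the alpha stretch was not. Long stretches were common around genes: 79.1% of protein-coding genes lay in a replicated peak-free stretch at least as long as that of the alpha genes, and 76.9% in one at least as long as that of the beta genes. On chromosome 11 the share was 68.4%, and on chromosome 7 82.5%.

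In the replicated list the count of genes with a peak did not separate embryonic from adult globin genes. Both kinds had 0 genes with a peak, 0 of 3 embryonic and 0 of 4 adult. Among all short genes the share was 2.27%, so with so few genes this count could hardly have told the kinds apart. Hbb-bh2 was kept apart because it belongs to neither list. In each other list the embryonic gene Hba-x was counted and no adult gene was. The median distance to the nearest replicated peak was 34380 bp for the embryonic genes, between 24852 and 44432 bp, and 21601 bp for the adult genes, between 5670 and 38709 bp. The ranges overlapped. The median of the embryonic genes was the larger in the pooled list (34380 against 16188 bp), in replicate 1 (41295 against 19946 bp) and in replicate 2 (32927 against 12451.5 bp). Genes of a cluster share their nearest peaks, so these distances are not independent and no test was made. Of the 3 embryonic genes 2 are beta-type, and of the 4 adult genes 2. In each list the embryonic median was the distance of Hbb-y, so the medians compare unlike mixes of the clusters.

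Within a cluster the order was the same in all lists for the beta-type genes but not for the alpha-type genes. In the alpha cluster Hba-x was 24852 bp from a replicated peak, against a median of 12086.5 bp for Hba-a1 and Hba-a2. The order was the opposite in the other lists, with 566 against 6036.5 bp in the pooled list, 561 against 6554.5 bp in replicate 1 and 619 against 4101.5 bp in replicate 2. In the beta cluster the embryonic genes were the farther in all 4 lists: 39406 against 31704 bp in the replicated and pooled lists, 46321 against 39225 bp in replicate 1 and 37953 against 27518 bp in replicate 2. The single beta-type genes interleaved in the replicated list, with Hbb-bt at 24699 bp, Hbb-y at 34380 bp, Hbb-bs at 38709 bp and Hbb-bh1 at 44432 bp. In the alpha cluster the order differed between the replicated list, which has no peak beside Hba-x, and the other 3, which have weak ones.

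**Figure D4:**
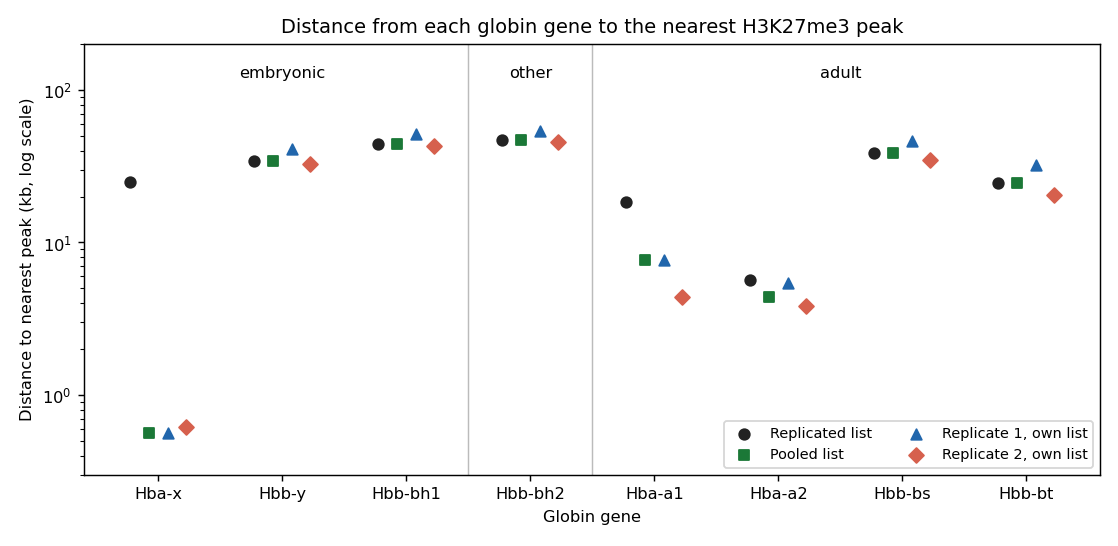
Distance from each globin gene to the nearest H3K27me3 peak (vertical axis, kb, log scale), with 1 symbol for each of the 4 lists and the genes grouped as embryonic, other (Hbb-bh2) and adult. Hba-x falls from 24852 bp in the replicated list to 619 bp or less in the other 3, while the beta-type genes lie between 20513 and 53991 bp in all of them.

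Embryonic and adult genes also differed in how far short reads can be placed in them. Hba-a1 and Hba-a2 were identical at 793 of 794 aligned bases of the gene body (99.9%), and Hbb-bs and Hbb-bt at 1399 of 1457 (96.0%). The embryonic genes had no such copy: Hbb-y and Hbb-bh1 were identical at 66.8% of 1400 aligned bases, and Hba-x and Hba-a1 at 65.6% of 454. The share of gene-body positions whose 36-base word occurs once in the genome was 3.77% in Hba-a1, 4.44% in Hba-a2, 28.1% in Hbb-bt and 32.2% in Hbb-bs. It was 96.3% in Hba-x and 100% in Hbb-bh2, Hbb-bh1 and Hbb-y. Words of 50 bases gave 5.24%, 6.17%, 31.0% and 34.9% for the adult genes in the same order. Every adult gene was below every embryonic gene.

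In the 1 kb on each side of the start the unique share was lowest for Hba-a2, at 20.5%, next lowest for Hba-a1, 58.0% for Hbb-bt and 65.3% for Hbb-bs, and at least 96.8% for the other members. Over whole clusters it was 75.7% (alpha) and 77.5% (beta), whereas 98.1% of the positions in the replicated peaks of the alpha window and 100% of those in the beta window were unique. The Nprl3 body, at 97.1%, and the stretch from Hbb-y to Olfr66, at 90.4%, were free of peaks with mostly unique sequence. The sources used here give neither the read length nor the treatment of reads that match several places. The part of these copies in the absence of peaks over the adult genes was not tested.

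**Figure D5:**
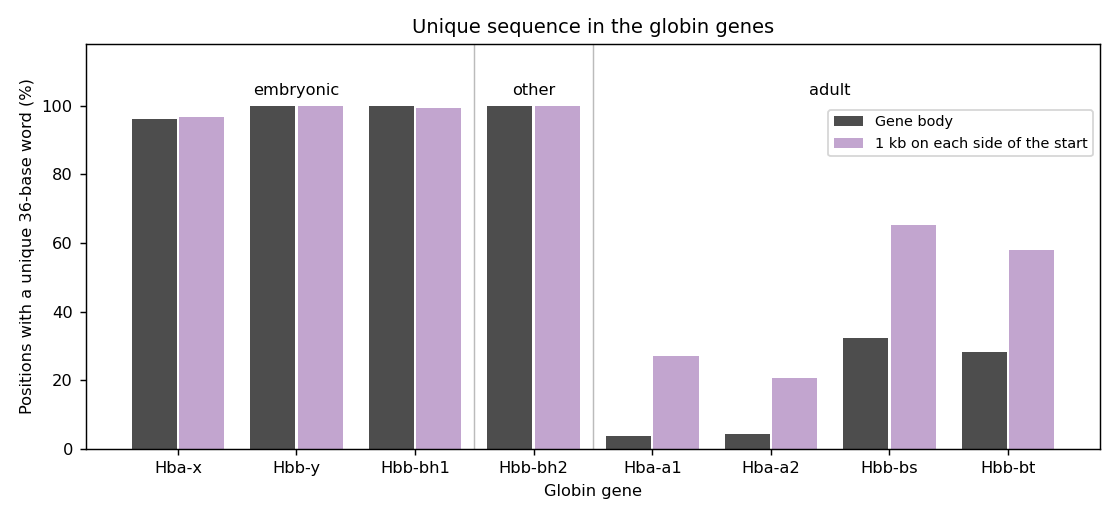
Share of positions (vertical axis, %) whose 36-base word occurs once in the reference genome, in the body of each globin gene (dark bars) and in the 1 kb on each side of its start (light bars). The bodies of the 4 adult genes lie between 3.77% and 32.2%, and those of the other 4 genes at 96.3% or more.

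The genes around the clusters differed by cluster. Of the 9 other protein-coding genes within 50 kb, 4 (44.4%) had a replicated peak, and these were the olfactory receptor genes Olfr68 with 879 covered bases in the body and 1 kb before the start, Olfr69 with 582, Olfr67 with 327 and Olfr64 with 176. All 4 flank the beta cluster. Nprl3, Mpg, which encodes a DNA glycosylase, Hbq1a and Hbq1b, beside the alpha genes, had no peak in any list. Of all 243 olfactory receptor genes of chromosome 7, these 4 included, 14 (5.76%) had a replicated peak. In the replicated list Olfr68 had the most covered bases of the 243, ahead of Olfr550 with 751, Olfr548-ps1 with 744 and Olfr69, but it led in none of the other 3 lists.

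Most genes that act with the globins had no replicated peak, which is also usual among all protein-coding genes, of which 12.0% had one. Among 5 other globin genes of the coding annotation 0 had one, and Mb, myoglobin, had a peak in the pooled list and in both own lists, and Cygb, cytoglobin, in that of replicate 1. Of 18 regulators of globin genes 1 (5.56%) had one, Sox6, a repressor of embryonic globin expression, with 2392 covered bases and 2 replicated peaks within 1 kb of its start. The others, among them Gata1, Klf1, Tal1 and Bcl11a, had none in any list. Of 12 haem synthesis genes 1 (8.33%) had one, Cpox (coproporphyrinogen oxidase), with 255 covered bases. Of 10 genes of iron uptake and haemoglobin handling 0 had one, but Slc48a1 had a peak in both own lists and Cd163 in that of replicate 2. Of 15 red cell membrane genes 3 (20%) had one: Add2 (beta-adducin) with 5134 covered bases, Ank1 (ankyrin) with 3002 and Slc4a1 (band 3) with 987. Epb42 had a peak only in the pooled list and in that of replicate 1, and Tmod1 only in that of replicate 2. The share of all protein-coding genes was 12.0%, with 2.27% for the short genes, and each list is small, so these counts are given as a description. The genes with a replicated peak differed in length: Sox6 spans 567925 bp, Ank1 175654, Add2 95729, Cpox 47345 and Slc4a1 17380 bp. No share was computed for all genes of such lengths.

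The genes most like the median globin gene by distance, over the 4 lists, were Dok2, Ypel3 and Gm42791. The median globin gene was 29616 bp from a replicated peak, 29539.5 bp from a pooled peak, 36757.5 bp from a peak of replicate 1 and 26720 bp from one of replicate 2. Dok2, on chromosome 14, stood at 29888, 29888, 36921 and 29933 bp in the same order. Likeness was the sum of absolute log10 differences, and says nothing of shared control. It was taken to the medians and not to any single globin gene. In the pooled list the alpha-type genes stood well below the median, Hba-x at 566, Hba-a1 at 7677 and Hba-a2 at 4396 bp.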

How the data were processed

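H3K27me3 peaks of 2 MEL replicates were used as deposited. Each replicate had been called on mm10 against the same 1 control file, both had been called together for the pooled list, and the replicated list drew on these 3 lists, per the text descriptions deposited by the authors. Aligner, caller, read length and the rule for keeping peaks: not given in the sources used here. The authors' signal value is a score with no stated definition, and the authors also deposited −log10 p and −log10 q values per peak. An mm9 list was not used here, since builds were not mixed. No count of reads was available from these files, so no interval was computed.

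The reference was GRCm38 with GENCODE mouse release 21. A gene had a peak if at least 1 bp of its body, or of the 1 kb on each side of its start, was covered, and distances ran from the gene body. Windows of the length of each cluster or of each cluster with 50 kb flanks were tiled along chromosomes 1 to 19, X and Y, and those with more than 10% unknown bases were left out. Unique words of 36 and 50 bases were counted on both strands. Promoters came from RefSeq (GRCm38.p6), where 7 of 8 members matched and Hbb-bh1 is the missing entry; gene pairs were aligned locally with Biopython 1.88. Scripts ran in Python 3.11.15 with numpy 2.4.6 and numba 0.67.0 and were tested on simulated data. With 1 group and no condition no test was made. Named were all members, neighbours within 50 kb with a replicated peak, the gene nearest to the closest peak, up to 4 genes of each list by covered bases, and the 3 genes most like the median member. Genes without a replicated peak were also named as landmarks or examples, after their values were seen. The members and lists were chosen with earlier results of these data known. Alternatives were the pooled and single lists, stricter peaks, other flanks, promoter widths, overlaps and starts.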

Additional observations from a re-analysis of the deposited data

How the results depend on the processing

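The bases covered in the alpha window, 3556 by replicated peaks, came to 4680 by pooled peaks, 554 by replicated peaks with a −log10 q of at least 2, 1829 by the upper 50% by signal value, 999 with flanks of 25 kb and 4618 with flanks of 100 kb. Leaving out 1 replicate, by use of the other's own list, gave 5020 to 6247. The 2299 bases of the beta window came to 0 at a −log10 q of at least 2 and 302 with flanks of 25 kb, and leaving out 1 replicate gave 1303 to 3816. The count of globin genes with a peak was 0, but 1 in the pooled list and 1 when either replicate was left out; promoters of 2.5 or 5 kb and an overlap of 50% left it at 0 in the replicated list. The embryonic median distance of 34380 bp became 1311580 bp at a −log10 q of at least 2, 41497 bp for the upper 50% by signal, and 32927 to 41295 bp when 1 replicate was left out. The adult median of 21601 bp became 664404, 26901 and 12451.5 to 19946 bp under the same settings, and 16188 bp with pooled peaks. The embryonic median was the larger under each of these settings, but the embryonic and adult groups mix the clusters in unlike shares. Within the alpha cluster Hba-x was nearer than the median adult gene in the pooled list and in both own lists. Of 26 alternative values for peak counts and peak-free stretches, 16 moved by more than the spread between the replicates, or by over 1.5 times for counts. The settings for the stretches were added after seeing the data. No paired analysis was possible because the samples form 1 group. Depth is unknown, most calls were weak, and much of the adult gene sequence is not unique, which limits what an absent peak can show.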

Other observations

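Globin pseudogenes, which do not belong to the coding annotation, were also free of peaks: 0 bases of Hbb-bh3 and Hbb-bh0 in the beta cluster, of Hba-ps3 on chromosome 15 and of Hba-ps4 on chromosome 17 were covered in any list. The nearest replicated peak was 44803 bp from Hbb-bh3, 37448 bp from Hbb-bh0, 1436011 bp from Hba-ps3 and 28966 bp from Hba-ps4. In the list of replicate 2 a peak stood 88607 bp from Hba-ps3 and 21402 bp from Hba-ps4.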
